A study of Homo sapiens with 3 samples.

Results

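The comparison described here sets RH30 cells given a mutated peptide nucleic acid (PNA) beside RH30 cells labelled untreated. It uses 2 of the series' 3 arrays, chosen by their titles, and every gene that the signal filter let through, 6745 of the 11963 genes for which the array has a probe set naming that gene alone. RH30 is an established cell line of alveolar rhabdomyosarcoma, a childhood tumour with features of skeletal muscle. The mutated PNA was given at 10 µM for 12 hours and is the sequence-altered control for a PNA aimed at the MYCN gene, which was used at the same dose and time on the third array. The untreated sample carries the same 12 hours in its title. Cells were grown in RPMI medium with foetal bovine serum, and the labels name no vehicle or mock treatment for the untreated cells. There was 1 array per condition, so the values below carry no replicate error and were not tested, and each difference is one between individual arrays, whose number limits the precision. Signals of the third array are printed as plain values beside them, since any comparison with it would share an array with the one described.

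The labels of the untreated array conflict. Its title and its treatment text say that the cells received nothing, whereas its source name is that of the mutated PNA sample. It is called untreated here after its title, and every direction below rests on that choice. Were the source name right, both compared arrays would be of mutated PNA cells. The differences below would then be between cultures given the same PNA, and not between treated and untreated cells.

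A PNA is a DNA analogue whose bases hang on a peptide-like backbone, which lets it bind matching nucleic acid and resist nucleases. A PNA of altered sequence is used as a control for whatever the chemistry, its uptake and the handling of the cells do regardless of the target. In rhabdomyosarcoma cells, growth factor receptors signal through RAS, RAF and MEK to the kinase ERK, which switches on its own inhibitors, among them the DUSP phosphatases and the Sprouty proteins, and the ETS factors of the ETV4 family. Withdrawal of such signals is a classical condition under which myoblasts leave the cycle and turn on muscle genes.

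The arrays were alike for most genes. The median log2 difference of mutated PNA minus untreated was 0.0007 and its SD over genes 0.28, and 95.3% of genes, 6430 of them, differed by less than 1.5-fold. The mutated PNA array lay above untreated by 2-fold or more in 25 genes and below it by as much in 25, which is 0.371% of the genes compared each way. After centring the differences within signal classes the counts were 19 and 30, so the higher share of these genes went from 50% to 38.8%. The spread depended on signal: in the dimmest of 10 signal classes, with mean signals from 117 to 177, 95% of genes had log2 differences no larger than 0.94 in size, and in the brightest no larger than 0.28. The dimmest class held 13 of the higher and 11 of the lower genes. No gene compared lay under the floor of 23.4 on either array by its brightest probe set. Among the quality measures, the 3′ to 5′ signal ratio of beta-actin was 2.11 for the untreated array and 1.73 for the mutated PNA array, that of GAPDH 1.02 on both, and the 24 probe sets for spiked-in bacterial poly-A RNA had a median ratio of 1.06. The part of the beta-actin ratio in the results was not tested.

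**Figure D1:**
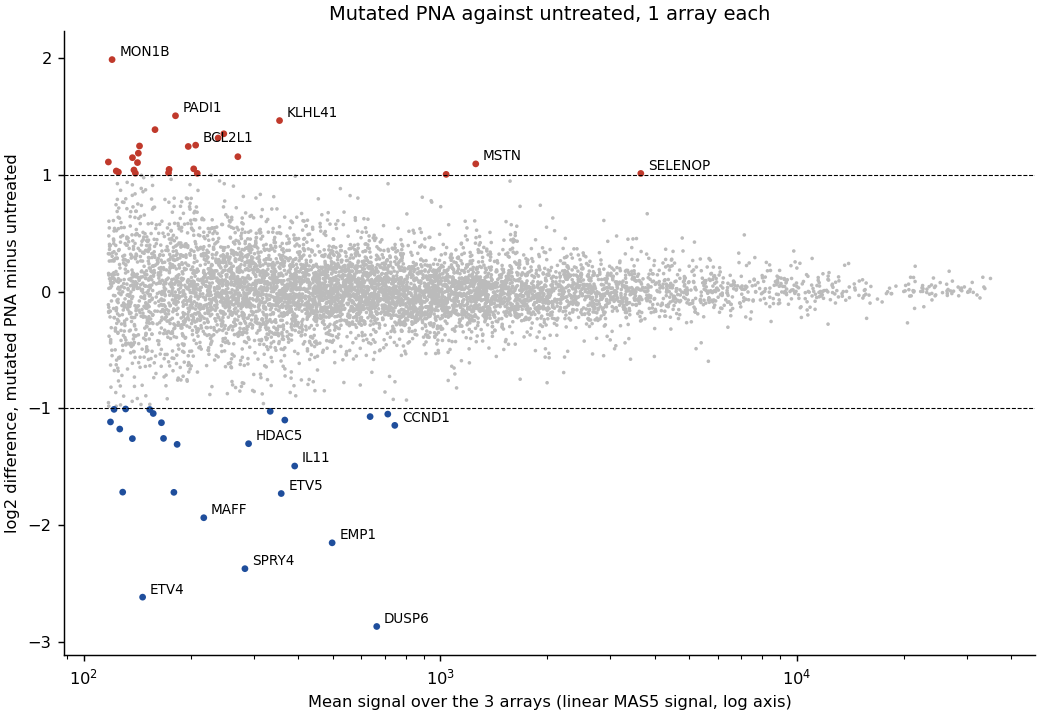
Log2 difference of mutated PNA minus untreated (vertical axis) against the mean MAS5 signal over the 3 arrays (horizontal log axis) for the 6745 genes, 1 array per condition. Red points are the 25 genes higher by 2-fold or more and blue points the 25 lower by as much, dashed lines mark 2-fold, and the cloud narrows as the signal grows while DUSP6, EMP1 and MSTN lie outside it at moderate signals.

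The genes furthest below untreated were led by feedback inhibitors and transcription factors downstream of ERK. A list of 21 such genes had 15 members past the filter, and all 15 were lower in mutated PNA cells, 8 of them at least 2-fold and 11 at least 1.5-fold. Their median log2 difference was −1.10, against 0.0007 over all genes, of which 0.371% were 2-fold lower, 2.27% at least 1.5-fold lower and 49.8% lower at all. The RNA came from whole cultures, in which fewer cells with a transcript and less of it per cell cannot be told apart. This list was drawn up when DUSP6, ETV4, SPRY4, EMP1 and MAFF were already known to be low in these data, and EMP1 and MAFF were included for that reason. Without those 2 genes, 6 of 13 members were at least 2-fold lower, and the median was −0.86. DUSP6, ETV4 and SPRY4 are still among these 6, so the reduced count also rests on genes already known to be low.

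Among the phosphatases, DUSP6, which dephosphorylates ERK, gave a signal of 1502 untreated and 206 with the mutated PNA, a 7.30-fold lower value, and 284 on the anti-MYCN PNA array. Its other probe sets read 751 and 114, and 453 and 8.8, so the 3 probe sets for this gene lay far apart between the arrays in the same direction. The 8.8 lay under the floor of 23.4, so the floor set the size of that probe set's log2 difference. For 95% of the genes in its signal class the log2 difference was no larger than 0.46 in size, and DUSP6 differed by −2.87. DUSP7, a relative of DUSP6, read 288 and 235, a log2 difference of −0.29. DUSP4 and DUSP5 were below the filter on all arrays, at 14.4 and 74.8 in untreated and 20.3 and 68.8 in mutated PNA cells by their brightest probe sets.

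The Sprouty proteins restrain receptor tyrosine kinase signalling upstream of ERK. SPRY4 read 457 on the untreated, 88.3 on the mutated PNA and 305 on the anti-MYCN PNA array, 5.18-fold lower with the mutated PNA. SPRY2 read 2411, 1634 and 1866, and SPRY1 read 633, 443 and 563, in the same order. The family was thus lower by unequal amounts, with log2 differences of −2.37, −0.56 and −0.51 between the compared arrays. SPRED2, a related inhibitor, read 923 and 856 and differed by −0.11, the smallest difference in the list.

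The ETV factors are ETS proteins whose transcripts follow ERK activity in many cells. ETV4 read 307 on the untreated, 50.1 on the mutated PNA and 81.8 on the anti-MYCN PNA array. ETV5 read 556, 168 and 351, and its other probe sets differed by −1.64 and −0.98 where the brightest differed by −1.73. ETV1 read 687, 382 and 268, and all 4 of its probe sets past the filter were lower with the mutated PNA, by −0.57 to −1.13. All 3 factors were therefore lower on the mutated PNA than on the untreated array. ETV4, 6.13-fold apart, belongs to the dimmest signal class, and its log2 difference of −2.62 was −1.39 when signals below 117 were raised to that value, whereas that of ETV5 was −1.73 either way.

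Other members of the list act in growth and adhesion. EMP1, a tetraspan membrane protein, read 1094 on the untreated, 246 on the mutated PNA and 153 on the anti-MYCN PNA array. MAFF, a small MAF transcription factor, read 427, 112 and 113. A dimmer MAFF probe set under the filter read 140 and 88.6 on the compared arrays, a difference of −0.66, less than 2-fold. For EMP1 and MAFF, by their brightest probe sets, the anti-MYCN PNA array lay near or below the mutated PNA array. CCND1, the D-type cyclin that couples growth factor signals to the cell cycle, read 975, 441 and 822, and the ephrin receptor EPHA2 read 462, 216 and 423. In these genes the mutated PNA array stood low and the other two lay close together. A second CCND1 probe set differed by −0.49, and the median over the probe sets of CCND1 was −0.82, which is less than 2-fold. IER3, a survival gene induced by many stimuli, read 1006, 554 and 541, and PHLDA1 read 459, 304 and 310, with differences of −0.86 and −0.59. The remaining members on the array, EPHA4, FOSL1 and LIF, were under the filter at 79.4, 38.3 and 71.8 in untreated and 95.3, 62.7 and 43.8 in mutated PNA cells.

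**Figure D2:**
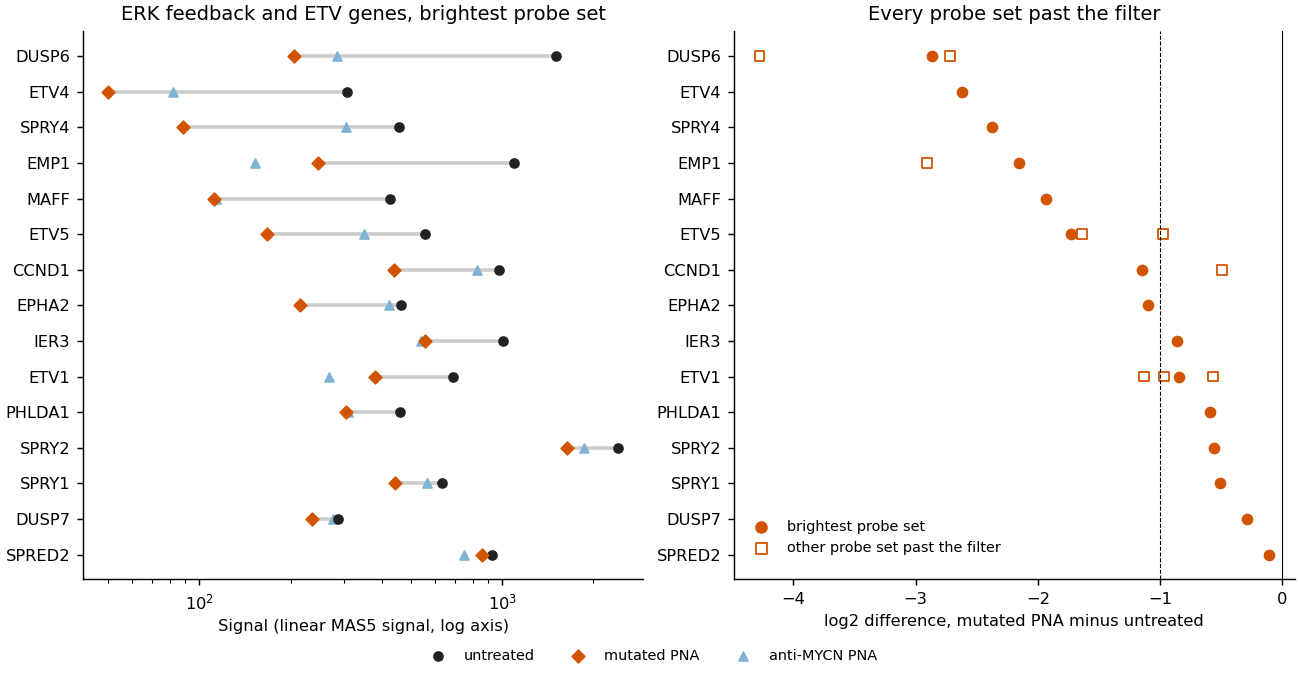
Left, MAS5 signal (log axis) of the 15 ERK feedback and ETV genes past the filter on the untreated, mutated PNA and anti-MYCN PNA arrays, 1 array each, with a grey line joining the first 2. Right, log2 difference of mutated PNA minus untreated for every probe set of these genes past the filter, where filled circles are the brightest probe set. All points lie below 0, from −4.28 for a DUSP6 probe set to −0.11 for SPRED2. The size of the −4.28 is set by the floor of 23.4, since the mutated PNA signal of that probe set was 8.8.

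The promoters of 4 of the 5 genes furthest below untreated are shown because these genes stood low together: DUSP6 (chr12:89352452-89352751, minus strand), SPRY4 (chr5:142324198-142324497, minus strand), EMP1 (chr12:13196476-13196775, plus strand) and MAFF (chr22:38201744-38202043, plus strand). Sequences are from RefSeq on GRCh38.p14, 5′ to 3′ along the gene, and capitals mark the letters of 4 motifs searched on both strands: CCGGAA of ETS factors, TGANTCA of AP-1, TGACGTC of CREB and ATF factors, and the E-box CACGTG.
DUSP6: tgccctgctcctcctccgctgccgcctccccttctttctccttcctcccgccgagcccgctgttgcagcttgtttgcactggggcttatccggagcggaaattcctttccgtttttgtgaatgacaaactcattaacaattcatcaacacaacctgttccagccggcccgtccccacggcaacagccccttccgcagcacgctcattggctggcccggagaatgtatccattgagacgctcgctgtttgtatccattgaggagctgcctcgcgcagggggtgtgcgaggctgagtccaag
SPRY4: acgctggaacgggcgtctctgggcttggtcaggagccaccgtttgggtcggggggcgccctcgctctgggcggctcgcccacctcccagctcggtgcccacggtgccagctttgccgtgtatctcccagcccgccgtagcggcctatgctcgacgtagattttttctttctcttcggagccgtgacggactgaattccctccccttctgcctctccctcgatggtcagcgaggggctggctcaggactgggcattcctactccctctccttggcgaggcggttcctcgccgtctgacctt
EMP1: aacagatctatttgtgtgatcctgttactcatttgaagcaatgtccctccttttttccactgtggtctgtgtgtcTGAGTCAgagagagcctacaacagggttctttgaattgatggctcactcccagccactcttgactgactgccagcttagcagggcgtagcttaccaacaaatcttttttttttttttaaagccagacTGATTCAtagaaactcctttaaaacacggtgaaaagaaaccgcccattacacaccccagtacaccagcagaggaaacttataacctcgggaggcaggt
MAFF: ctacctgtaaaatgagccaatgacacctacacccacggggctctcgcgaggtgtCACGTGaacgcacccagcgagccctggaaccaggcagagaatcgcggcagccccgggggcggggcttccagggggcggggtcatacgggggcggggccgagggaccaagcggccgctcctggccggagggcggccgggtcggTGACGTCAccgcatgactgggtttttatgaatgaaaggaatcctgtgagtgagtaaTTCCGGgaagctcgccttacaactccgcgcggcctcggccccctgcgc
The windows of DUSP6 and SPRY4 held none of the 4 motifs. That of EMP1 held 2 AP-1 motifs, and that of MAFF held 1 ETS motif, 1 E-box and a CREB/ATF motif that matched on both strands of 1 stretch of letters. Of the 15 list members compared, 11 had a promoter in the RefSeq table, and 4 of these held the ETS motif, 3 the CREB/ATF motif, 1 the AP-1 motif and 1 the E-box. Over the 5688 genes compared that had a promoter in the table, the shares were 31.9%, 6.28%, 3.90% and 11.1%, and over all 27305 promoters of this length they were 17.6%, 3.63%, 7.76% and 7.43%. These are matches of letters only.

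The immediate early genes, which cells switch on within minutes of a stimulus, did not lie to one side of untreated. Of 29 members, 19 passed the filter, 11 were lower and 8 higher, and the median log2 difference was −0.13. At least 1.5-fold lower were 5 members, and at least 1.5-fold higher were 2, against 2.27% and 2.40% of all genes. Besides MAFF, the matricellular gene CCN2 was at least 2-fold lower, at 177 on the untreated, 81.5 on the mutated PNA and 98.7 on the anti-MYCN PNA array. Its difference was −0.59, less than 2-fold, with signals below 117 raised to that value. The reprogramming factor KLF4 read 296, 161 and 221, and IER2 read 2587, 1600 and 2474. On the other side, KLF2 read 643, 1125 and 905, and JUN, a subunit of AP-1, read 2157, 3289 and 3187. DUSP1, a stress-induced phosphatase, read 841, 753 and 953, so the DUSP genes did not differ alike.

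Members of this group that failed the filter on mean signal included the factors EGR1, at 99.7 on the untreated, 22.6 on the mutated PNA and 97.6 on the anti-MYCN PNA array, FOS, at 50.1, 8.7 and 44.4, and NR4A1, at 165, 29.4 and 98.2. Others under the filter did not share that order: NR4A3 read 17.9, 50.3 and 12.7, FOSL1 read 38.3, 62.7 and 15.8, and FOSB read 4.5, 7.7 and 6.1. EGR1, FOS and NR4A1 were picked after their values were seen, and at such signals the arrays differ widely in many genes. NAB2, a corepressor of EGR factors that is in no list, read 834, 397 and 677, a 2.10-fold lower value with the mutated PNA, and its other probe set differed by −0.87. It too was chosen after its value was seen.

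The kinases, adaptors and receptors upstream of these genes lay closer together. Of 16 RAS-ERK cascade members compared, none was 2-fold apart, 9 were lower and 7 higher, and the median was −0.04. The ERK-activated kinase RPS6KA3 read 1407 untreated and 894 with the mutated PNA, the only member at least 1.5-fold apart, and the adaptor SHC1 read 1845 and 1370. Among 13 growth factor receptors none was 1.5-fold apart. FGFR2, IGF1R and FGFR1 were higher by log2 differences of 0.55, 0.53 and 0.48, and FGFR4, a receptor prominent in this tumour, was lower by −0.41, at 3191 and 2395. Of 9 ligands, PGF, a VEGF family factor, read 1373 and 842 but differed by −0.24 by the median over its probe sets, and PDGFC, a platelet-derived growth factor, read 1063 and 1618.

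Beyond these lists, IL11, a cytokine of the interleukin-6 family, was among the genes furthest below untreated. It read 589 on the untreated, 209 on the mutated PNA and 374 on the anti-MYCN PNA array. A dimmer IL11 probe set under the filter read 91.2 and 83.3 on the compared arrays, a difference of −0.13. All 9 members of the NF-kB and inflammatory list past the filter were lower, against 49.8% of all genes. Their median was −0.18, but apart from IL11 none reached 1.5-fold. HDAC5, a class II histone deacetylase that holds back MEF2 factors, read 316, 128 and 427, so the mutated PNA array was the lowest of the 3. In PLEKHG3, a guanine nucleotide exchange factor, the arrays read 220, 66.7 and 251, in LIMK1, a kinase that acts on cofilin, 145, 63.9 and 171, and in ALG12, a mannosyltransferase of the endoplasmic reticulum, 182, 76.3 and 244. The organic anion transporter SLCO4A1 read 136, 56.9 and 218. In each of these 5 genes the anti-MYCN PNA array lay above untreated. Because the filter took the mean over all 3 arrays, SLCO4A1 could pass it only with an anti-MYCN PNA signal above its untreated one. LIMK1 could pass only with an anti-MYCN PNA signal close to or above untreated. For SLCO4A1 this order was therefore set by the filter, and for LIMK1 nearly so, and nothing is concluded from it there.

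ADAT1, a transfer RNA deaminase, read 211 on the untreated, 64.1 on the mutated PNA and 111 on the anti-MYCN PNA array. LMAN1, a cargo receptor for glycoproteins, read 290, 117 and 142 by its brightest probe set, but its other probe set read 199 and 197 on the compared arrays, so its probe sets disagreed. PLEKHG3, ADAT1, SLCO4A1, ALG12 and LIMK1 were within 2-fold when signals below 117 were all raised to that value. Dimmer PLEKHG3 probe sets under the filter differed by 0.05 and 0.

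**Figure D3:**
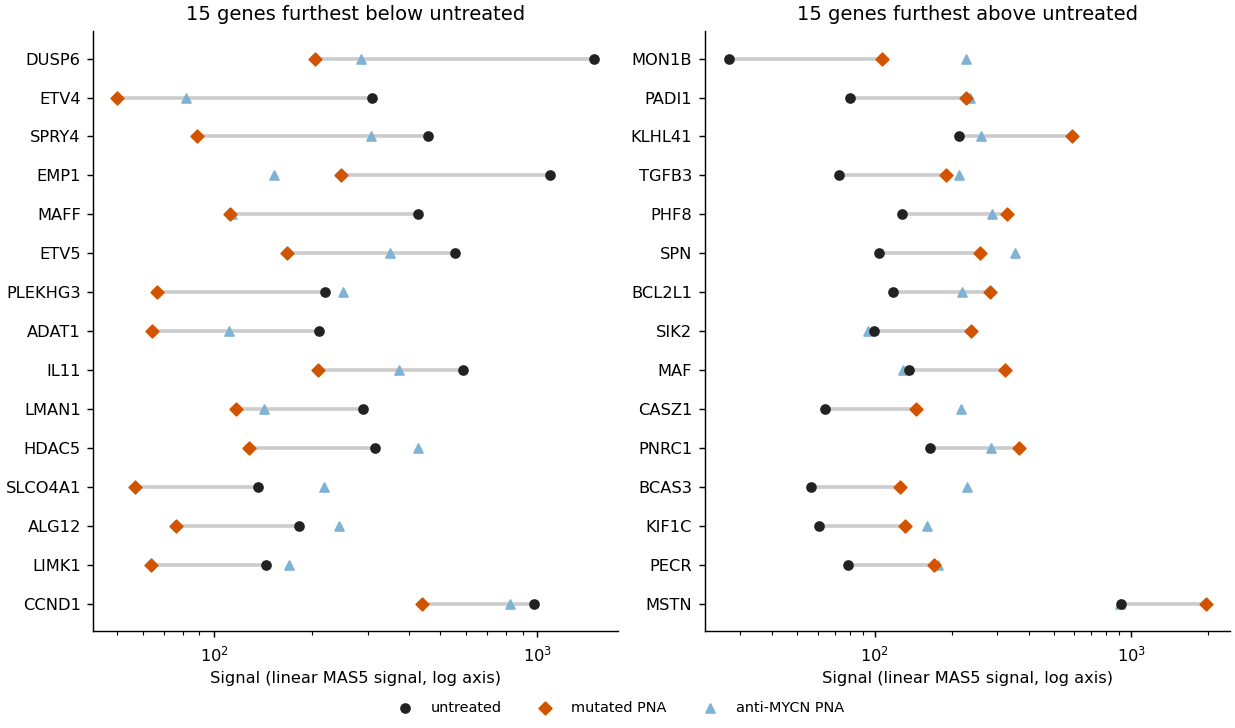
MAS5 signal (log axis) of the 15 genes furthest below and the 15 furthest above untreated in mutated PNA cells, on the untreated, mutated PNA and anti-MYCN PNA arrays, 1 array each. Grey lines join untreated and mutated PNA; MON1B starts from 27.0 in untreated cells, and MSTN and KLHL41 are high on the mutated PNA array alone.

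The genes furthest above untreated came from several functions, and most were dim. Of the 25 genes at least 2-fold higher, 15 had an untreated signal under the filter of 117, so they passed the filter through the arrays on which they were high, and of the 25 lower genes 14 had a mutated PNA signal under it. MON1B, a factor that helps early endosomes mature, was the furthest, at 27.0 on the untreated, 107 on the mutated PNA and 227 on the anti-MYCN PNA array. Its signals on both compared arrays lay under 117, so its difference was 0 when signals below 117 were raised to that value. PADI1, an enzyme that converts arginine to citrulline, read 80.3, 228 and 235. TGFB3, a TGF-beta ligand, read 72.7, 190 and 213, and PHF8, a histone demethylase, read 128, 328 and 286. A dimmer PHF8 probe set under the filter read 35.4 and 30.7 on the compared arrays, a difference of −0.21. The filter used the mean over all 3 arrays, so MON1B, PADI1 and TGFB3, each under 117 untreated, could pass only through higher signals on the others. When signals below 117 were raised to that value, PADI1 and TGFB3 differed by 0.96 and 0.70, less than 2-fold.

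BCL2L1, which encodes the survival protein BCL-XL, read 118 on the untreated, 281 on the mutated PNA and 219 on the anti-MYCN PNA array. Its dimmer probe sets, both under the filter, differed by 0.85 and −0.37 and so did not point one way. SPN, a sialoglycoprotein known from leukocytes, read 104, 259 and 353 by an _x_at probe set, a kind whose probes can also match other transcripts, so its own level is uncertain. PNRC1, a nuclear receptor coactivator, read 164, 365 and 284. CASZ1, a zinc finger factor, BCAS3, the kinesin KIF1C and the peroxisomal reductase PECR were higher by log2 differences of 1.19, 1.15, 1.11 and 1.10, each with an untreated signal of 79.0 or less. With signals below 117 raised to that value, these differences were 0.31, 0.10, 0.16 and 0.54, and none was 2-fold. A dimmer KIF1C probe set under the filter differed by −0.65, in the opposite direction. HMOX1, the stress-induced haem oxygenase, read 109, 221 and 295 and lay within 2-fold under several other settings. It was the only one of 23 members of the NRF2 and oxidative stress list at least 1.5-fold apart.

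Some of the genes at least 2-fold higher on the mutated PNA array were near untreated on the third array. On the log2 scale, the third array lay nearer untreated in 7 of the 25 higher genes and nearer mutated PNA in 18. All were picked by their values on the compared arrays, so their order on the third array was not tested. The kinase SIK2 read 99.7 on the untreated, 237 on the mutated PNA and 94.2 on the anti-MYCN PNA array, and the transcription factor MAF read 137, 324 and 129. A second MAF probe set read 110, 247 and 197, so it was also high on the mutated PNA array but lay above untreated on the third. PER2, a repressor of the circadian clock, read 146, 303 and 162, and differed by 0.94, less than 2-fold, with a pseudocount in place of the floor. A dimmer PER2 probe set under the filter read 28.4 and 27.5 on the compared arrays, a difference of −0.05. SELENOP, a secreted selenium transport protein chosen after its value was seen, read 2732, 5507 and 2722, and was the only 2-fold gene in the brightest signal class, where 95% of genes differed by at most 0.28. MSTN and KLHL41, described next, had the same order.

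Muscle genes stood slightly higher in mutated PNA cells. In the sarcomere and muscle differentiation list 14 of 18 members past the filter were above untreated, against 50.2% of all genes, and the median log2 difference was 0.24. At least 1.5-fold higher were 2 of the 18, KLHL41 and CKM, and none was 1.5-fold lower, against 2.40% and 2.27% of all genes. KLHL41, a sarcomeric kelch protein, read 213 on the untreated, 589 on the mutated PNA and 261 on the anti-MYCN PNA array. CKM, muscle creatine kinase, read 188, 295 and 404, and the slow troponin TNNI1 read 5710, 7993 and 7681. DMD, the dystrophin gene, was lower, at 1045 and 870 on the compared arrays. KLHL41 was known to be high when this list was drawn up.

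Among 14 myogenic factors past the filter 3 were at least 1.5-fold higher and none lower, against 2.40% and 2.27% of all genes, and the median was 0.10. MSTN, 1 of the 3, is counted in this list although it encodes myostatin, a secreted inhibitor of muscle growth and not a transcription factor. It read 915 on the untreated, 1953 on the mutated PNA and 907 on the anti-MYCN PNA array. MEF2C, which partners the myogenic factors on muscle promoters, read 1336, 2216 and 1474, and its other probe sets differed by 0.56 and 0.32, less than 1.5-fold, where the brightest differed by 0.73. MYOG, the differentiation factor myogenin, read 748, 1238 and 1024. These 3 genes were highest on the mutated PNA array. MYOD1, the determination factor, read 6715 and 6266, and PAX3, a partner in the fusion gene of this tumour type, read 185 and 197. MYF5, MYF6, MEF2D and PAX7 of the same list were under the filter. They read 10.3, 42, 78.3 and 40.4 in untreated and 22.6, 58.7, 93.3 and 37.5 in mutated PNA cells. Of the 40 sarcomere and muscle differentiation genes on the array, 18 passed the filter. The muscle character that the label implies was therefore seen on both compared arrays in some muscle genes and not in others. Of 24 PAX3-FOXO1 targets, DCX, a microtubule-binding protein, was the only one at least 1.5-fold apart, at 3074 and 4878. Of 7 genes of the acetylcholine receptor and of excitation-contraction coupling, none was 1.5-fold apart, and the receptor subunit CHRNA1 read 4176 and 2795.

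**Figure D4:**
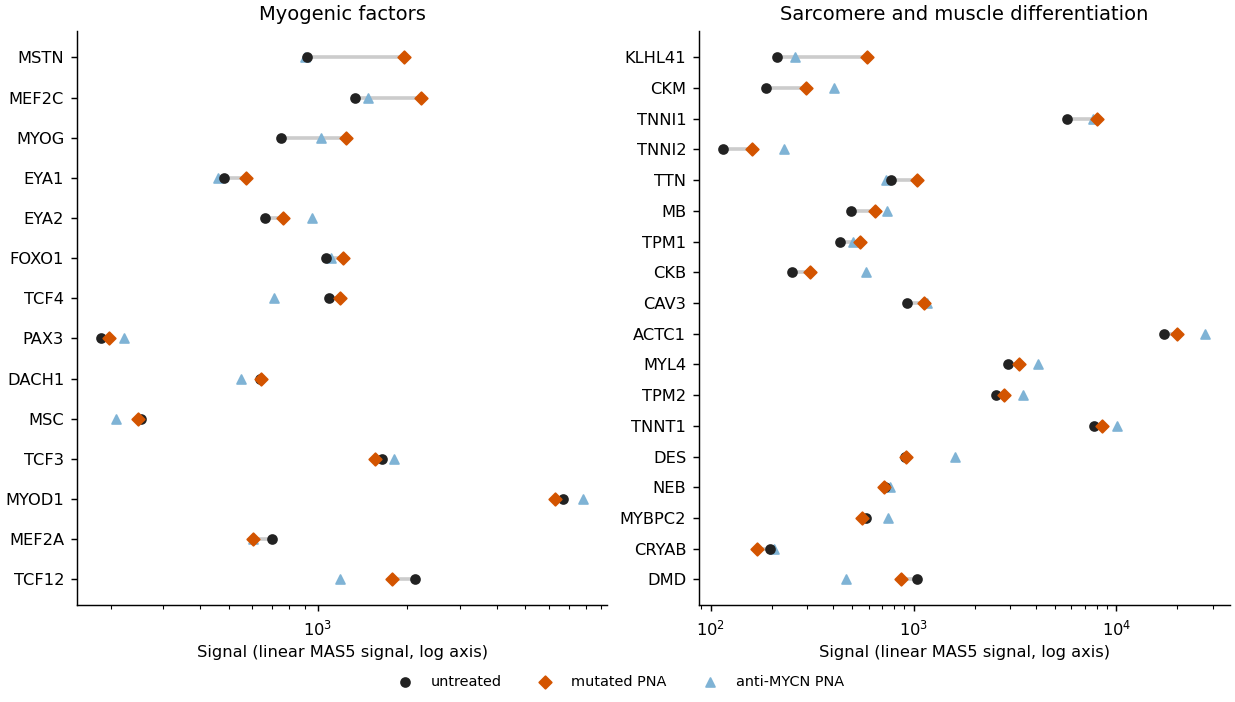
MAS5 signal (log axis) of the 14 myogenic factors and the 18 sarcomere and muscle differentiation genes past the filter on the untreated, mutated PNA and anti-MYCN PNA arrays, 1 array each; grey lines join the first 2. MSTN, MEF2C, MYOG and KLHL41 are highest on the mutated PNA array, and MYOD1 lies between 6266 and 6715 on both compared arrays.

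In the cell cycle lists the differences were small and, for mitosis, mostly in 1 direction. Of 40 G2 and mitosis genes 33 were above untreated, against 50.2% of all genes, with a median of 0.11. At least 1.5-fold higher was 1 of the 40, against 2.40% of all genes, the hyaluronan receptor and spindle protein HMMR, at 1113 untreated and 1690 with the mutated PNA. HMMR was within 1.5-fold after median scaling (0.58) and by the median over its probe sets (0.36). Of 45 G1/S and DNA replication genes, 20 were above untreated, none reached 1.5-fold, and the median was −0.01. Among 13 CDK inhibitors, D cyclins and their partners, CCND1 was 2-fold lower and CDKN1A, the p21 inhibitor and a p53 target, read 1082 and 695, whereas CDKN1B, the p27 inhibitor, read 1117 and 1539. No other of the 18 p53 targets was 1.5-fold apart.

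MYCN, the gene to which the other PNA is directed, read 3313 untreated and 2804 with the mutated PNA, a log2 difference of −0.24. In its signal class 95% of genes differed by at most 0.37. MYC read 1904 and 1608, the same log2 difference of −0.24, and no member of the 14 genes of the MYC and MAX network was 1.5-fold apart. Of 27 MYC-activated genes 20 were below untreated, against 49.8% of all genes, none by 1.5-fold, with a median of −0.09. CDC25A and PA2G4 differed most, by −0.43 and −0.40. For CDC25A the median over its probe sets was 0.13, in the opposite direction, and PA2G4 differed by −0.02 without _x_at and _s_at probe sets. Ribosome biogenesis genes had a median of −0.17, with 24 of 31 lower, against the same 49.8% of all genes. RRP9, a component of the U3 small nucleolar particle, read 410 and 246. The 25 ribosomal proteins had a median of 0.02, with 1 of them at least 1.5-fold higher, against 2.40% of all genes.

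Metallothioneins bind zinc and copper and are induced by metals and glucocorticoids. In the metallothionein and zinc list 10 of 11 genes were below untreated, against 49.8% of all genes, with a median of −0.39. Only MT1H, at 954 and 503, was 1.5-fold apart, where 2.27% of all genes were at least 1.5-fold lower. MT1X read 1685 and 1233, and MT1G, at 261 and 300, went the other way. Metallothionein genes are near copies of each other, so their separate levels are uncertain. Outside the family, the zinc exporter SLC30A1 read 854 and 641, and the metal-sensing factor MTF1 read 333 and 249. On the anti-MYCN PNA array MT1H, MT1X and MT1G read 758, 1954 and 459.

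The stress and innate immune lists below had medians between −0.16 and 0.03, against 0.0007 over all genes, of which 49.8% were lower. In the interferon-induced list 12 of 44 members passed the filter, with a median of 0.03 and IRF1, a transcription factor, lower at 198 and 117. Among 6 genes of RNA and DNA sensing 4 were lower and 2 higher, with a median of −0.16, and none was 1.5-fold apart. Of 34 genes of the ATF4, CHOP and unfolded protein list, 20 were lower, and the median was −0.09. SDF2L1, an endoplasmic reticulum chaperone partner, was the only one at least 1.5-fold apart, at 371 and 216. DDIT3, which encodes CHOP, read 1672 and 1159. The heat shock list had a median of −0.07 over 33 genes, of which 22 were lower. HSF1, its master factor, read 254 and 158, and HSPA4L and DNAJB4 were higher by 0.72 and 0.61, the latter 0.24 by the median over its probe sets. Glycolysis, hypoxia, cholesterol synthesis and proteasome lists had medians between −0.07 and −0.0048, and none of their genes was 2-fold apart. The lysosome and endosome list, which bears on the route by which such compounds may enter cells, had a median of −0.01. MON1B and the protease CTSD, at 120 and 199, were the only ones of 35 at least 1.5-fold apart. Both were higher, where 2.40% of all genes were at least 1.5-fold higher.

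In further lists the differences of 1.5-fold or more came from few genes. JAG2, a Notch ligand, and HES1, a Notch target, read 371 and 239, and 224 and 145. They were the 2 of 14 Notch genes at least 1.5-fold lower, against 2.27% of all genes. JAG2 differed by −0.41 by the median over its probe sets and HES1 by −0.56 with a pseudocount in place of the floor, both less than 1.5-fold. FHL3, a LIM protein, read 414 and 213. With CCN2, it was 1 of 2 among 24 SRF and YAP targets at least 1.5-fold lower, against the same 2.27% of all genes. In the matrix list, COL18A1 read 133 and 75.3, and LOXL1, a lysyl oxidase relative, read 1004 and 1521. COL18A1 differed by −0.18 with signals below 117 raised to that value, and LOXL1 by 0.58 after median scaling, both less than 1.5-fold. KDM5C, a histone demethylase, read 176 and 309, next to PHF8 and HDAC5 among 42 chromatin regulators with a median of −0.0025. ID1, an inhibitor of myogenic factors, read 2883 and 2022, and TGFB3 was the only one of 26 genes of the TGF-beta, BMP and ID list at least 1.5-fold apart.

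**Figure D5:**
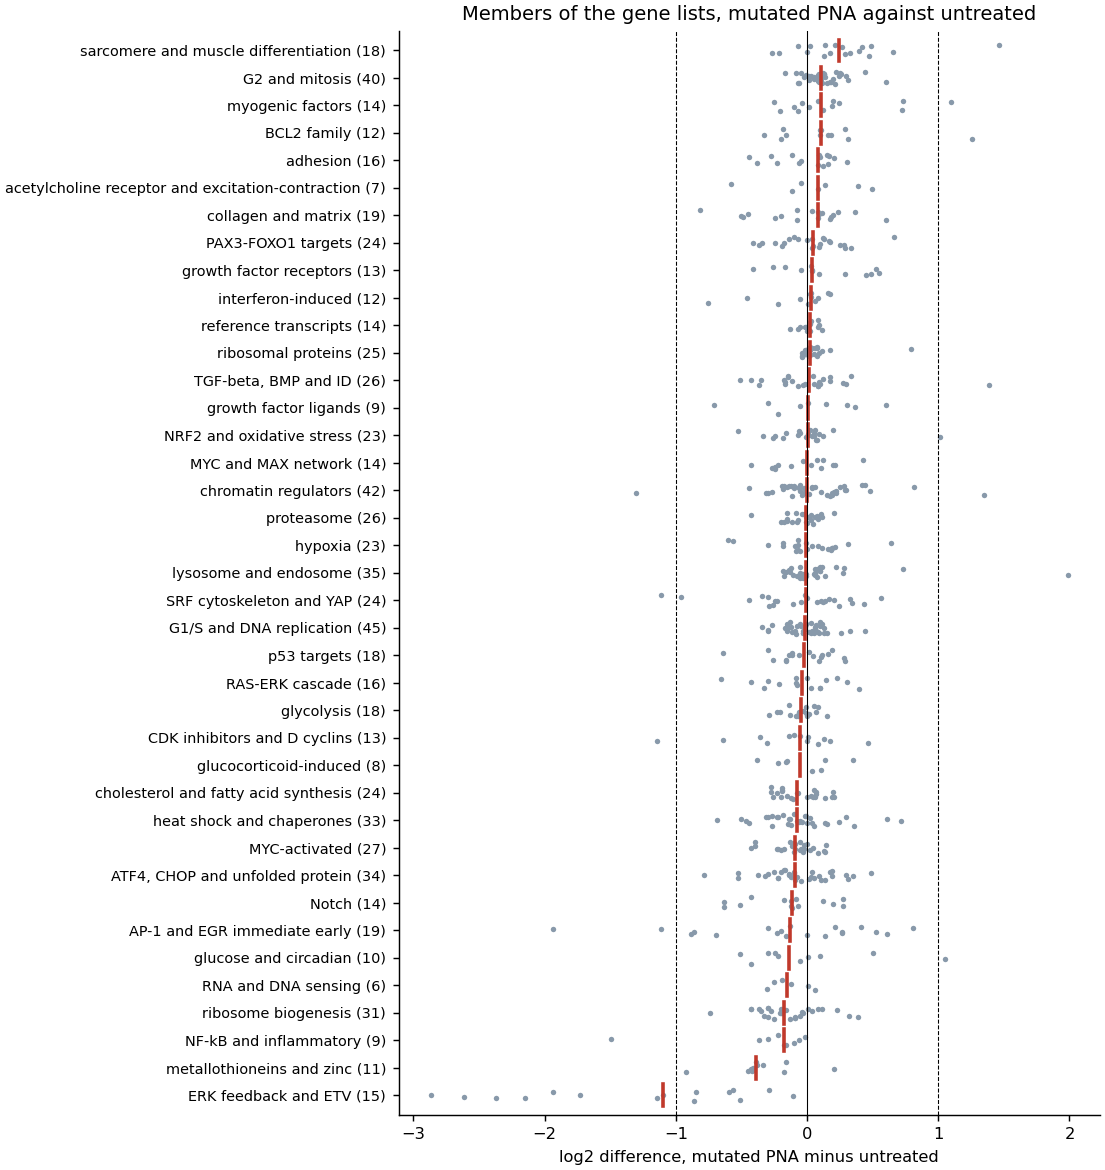
Log2 difference of mutated PNA minus untreated for each member of the gene lists with at least 5 genes past the filter (the number in parentheses); each point is a gene, red bars are list medians and dashed lines mark 2-fold. The ERK feedback and ETV list lies furthest left with a median of −1.10, followed by metallothioneins at −0.39, and the sarcomere list furthest right with 0.24.

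Markers of other cell types were near background on both arrays. None of 13 epithelial markers on the array passed the filter, and their summed signal was 339 untreated and 268 with the mutated PNA, with 6 and 8 of them under the floor. Of 16 leukocyte markers ITGB2 alone passed, at 133 and 228, with a summed signal of 474 and 522, and 10 and 11 of them lay under the floor of 23.4. Of 11 endothelial markers ENG alone passed, at 205 and 196, with a summed signal of 325 and 408 and with 8 and 6 under the floor. The part of these markers in the results was not tested. By the same sum, the 18 genes of the myogenic factor list on the array gave 18701 and 20641, MSTN among them at 915 and 1953.

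Other probe sets of the same genes gave a view within the same arrays. Of the 25 lower genes, 7 had 9 further probe sets past the filter, and all 9 were lower, 7 of them by at least 1.5-fold. Of the 25 higher genes, 3 had 4 further probe sets, 3 of which were higher and 1 of which reached 1.5-fold. Over all genes, 59.2% of 3154 such probe sets had the direction of the brightest one. PDLIM4, at 646 and 1295 by an _x_at probe set, differed by 0.26 and 0.01 in its other probe sets, and CASKIN2, at 77.7 and 161, by −0.08 in a second one, so for these 2 the probe sets disagreed. At the edge of the threshold, PDE9A and HOXB6 lay just inside it at −1.01 each, CYP3A4 just outside at −0.98, and PDLIM4 just inside and ALAD just outside at log2 differences of 1.0037 and 0.9967. The genes in this paragraph were chosen after their values were seen.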

How the data were processed

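Total RNA of 3 RH30 samples was labelled with biotin by the Affymetrix one-cycle protocol and hybridised to 1 array each, per the labels' protocols. For each probe set the authors deposited 1 MAS5 intensity on a linear scale; the submitters' processing notes name GCOS as the software. MAS5 combines a set's matched and mismatched probes, and the 2% trimmed mean was 500.2 on all arrays. Scanner files and detection calls were not used here.

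Of 22215 gene probe sets, 19064 name 1 gene in GEO's platform annotation, 1043 several and 2108 none, and 19052 were updated to current symbols through the RefSeq table of GRCh38.p14. Signals were brought to a common 2% trimmed mean and floored at the pooled 25th percentile (23.4). Probe sets with a mean over the 3 arrays under the pooled 50th percentile (117) were left out, and each gene was represented by its brightest probe set. Differences are log2 of floored signals, and a gene is counted from 2-fold, with 1.5-fold given beside it.

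The members and the 42 lists were chosen with earlier results of these data known, which placed EMP1, MAFF, KLHL41, MON1B and PHF8 in theirs. Genes are named by rule: the 15 furthest each way, list members at least 2-fold apart, up to 4 members of each list by size of difference, and MYCN; other genes were chosen after their values were seen. The procedure was tested on simulated data. Fold changes were simulated in bright genes only, so the recovery of changes in dim genes was not tested. Alternatives were other scalings, filters, floors, thresholds and probe set choices. The software was pandas 2.3.3 with numpy 2.4.6 on Python 3.11.15, with trimmed means from scipy 1.17.1 and plots from matplotlib 3.10.9.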

Additional observations from a re-analysis of the deposited data

How the results depend on the processing

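The counts of genes at least 2-fold apart moved with the treatment of dim signals. For genes higher in mutated PNA the count of 25 became 326 with no filter, 3 with the filter at the 75th percentile, 12 with the floor at the 50th percentile, 12 with a pseudocount in place of the floor, 12 without _x_at and _s_at probe sets, and 162 and 1 at thresholds of 1.5-fold and 3-fold. For genes lower in mutated PNA the count of 25 became, in the same order, 220, 4, 15, 16, 14, 153 and 8. Centring within signal classes gave 19 higher and 30 lower, and median scaling 18 and 27. The remaining scalings, no floor and the median over probe sets left both counts within 1.5 times. The SD of the log2 difference ran from 0.20 to 0.42. No named gene at least 2-fold apart changed direction under these alternatives, except that MON1B was at 0 with the floor at the 50th percentile; with that floor 14 of the named 2-fold genes fell within 2-fold and 20 did not. The list medians kept their sign under the alternatives for the ERK feedback and ETV genes (−1.12 to −0.71), sarcomere genes (0.15 to 0.29), myogenic factors (0.09 to 0.17), metallothioneins (−0.41 to −0.38), ribosome biogenesis genes (−0.20 to −0.13), MYC-activated genes (−0.11 to −0.04) and G2 and mitosis genes (0.09 to 0.12). Medians near 0 changed sign under at least 1 alternative for the G1/S (−0.03 to 0.0064), hypoxia (−0.03 to 0.0085), lysosome (−0.03 to 0.05) and chromatin lists (−0.05 to 0.04). The growth factor ligand and receptor, TGF-beta, p53 target, NRF2, and SRF and YAP lists did so too. The same held for the MYC and MAX network (−0.13 to 0.08) and the collagen and matrix list (−0.08 to 0.10). The glucose and circadian median of −0.14 ran from −0.20 to 0.0047. No paired analysis was possible because each condition has 1 array. With no replicates, neither the conflict in the labels of the untreated array nor the spread between cultures can be resolved from these values.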

Other observations

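Of 1233 probe sets past the filter that name several genes or none in the annotation, 2 were higher and 5 were lower with the mutated PNA by 2-fold or more. Among the lower ones, 217363_x_at read 562 on the untreated, 81.4 on the mutated PNA and 526 on the anti-MYCN PNA array, and 209671_x_at read 1015, 307 and 624. Both are unnamed here. The probe set 220162_s_at, which the annotation gives to DNLZ and CARD9 together, read 153, 32.9 and 179.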
